A study of Mus musculus with 6 samples.

Results

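Integrin and laminin subunit genes were examined in laser-captured mesenchyme of the mouse incisor, where mesenchymal stem cells (MSCs) give rise to dividing transit amplifying cells (TACs). The members were all protein-coding genes of the deposited table named as integrin alpha subunits, as integrin beta subunits Itgb1 to Itgb8, or as laminin alpha, beta or gamma chains. This gave 36 genes, 25 integrin and 11 laminin, of 23718 listed. All 6 samples came from mice 1 month old, C57BL/6 by the labels and of mixed background by the study's methods, that carried a tdTomato reporter and a tamoxifen-activated Cre, and were taken 1 day after tamoxifen. By the names in the labels, the 3 MSC samples came from Gli1-CreER;tdT mice and the 3 TAC samples from Axin2-CreER;tdT mice, so the captured region and the Cre driver cannot be told apart. The study's methods give 3 mice per group, and the labels do not tie a sample to an animal.

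Integrins are cell surface receptors made of an alpha and a beta subunit that tie the cytoskeleton to the matrix outside the cell. Laminins are secreted trimers of an alpha, a beta and a gamma chain that form the sheet-like core of basement membranes, where integrins and dystroglycan bind them. In the tooth, basement membrane lies between dental epithelium and mesenchyme and around vessels and nerves, while mesenchymal cells use other integrins to hold collagen and fibronectin.

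Values are in the deposited normalized unit, estimated reads scaled per library and not divided by gene length. Estimated reads per library ran from 20203159 to 108156380. Replicates 1 and 2 of each group were close to each other, with Pearson correlations of log2 values across genes of 0.983 in MSC and 0.990 in TAC. Replicate 3 of both groups stood apart, with correlations of 0.792 to 0.870 with its own group. Of the 36 genes, 7 had no read in MSC replicate 3 and 2 had none in TAC replicate 3, against none in the other libraries. Over all genes listed, 43.1% had no read in MSC replicate 3 and 28.3% in TAC replicate 3, against 6.89% to 8.36% in the other libraries. The replicate 3 libraries nevertheless had the most estimated reads, 59793645 in MSC and 108156380 in TAC. Results are therefore also given within replicates 1 and 2 and within replicate 3, where a group has 1 library and no spread of its own. The labels name no batch. The groups overlapped in Gli1 and Axin2, which name the drivers, and in Mki67, although at each replicate number Gli1 was higher in MSC and Mki67 in TAC. Axin2 was 12.01 to 58.3 in MSC and 34.1 to 63.9 in TAC. Gli1 was 245 to 422 in MSC and 141 to 396 in TAC, and Mki67, a gene of dividing cells, was 41.5 to 137 in MSC and 122 to 630 in TAC. Of 10 dental mesenchyme genes 9 were read in all 6 libraries, Msx1, Prrx1 and Pax9 at 37.1 or more and Lhx6 at 4.76 to 12.5. Barx1 was 4.45 and 3.74 in MSC replicates 1 and 2, had no read in MSC replicate 3, and was 0.482 to 1.53 in TAC.

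Most of these subunits were lower in TACs, with Itga4 as the chief exception. Of the 36 genes 35 reached the mean of 1 needed for testing, all but Itgae. Their median log2 fold change, TAC minus MSC, was -0.63, against 0.026 over all 15391 genes tested, and 25 of 35 were lower in TAC (71.4%, against 48.5% of all genes). With adjustment over all genes, 0 of 35 passed in limma, where 0.422% of all genes did. At an unadjusted p under 0.05, 9 were higher in MSC and 1 in TAC, where 6.43% and 5.42% of all genes were. All 3 MSC libraries lay above all 3 TAC libraries for 13 of 35 members (37.1%, against 12.2% of genes), and below them for 2 (5.71%, against 12.3%). With the replicate number as a block, Itga4 and Lamb2 passed the adjusted threshold, 2 of 35 where 1.49% of genes did, and 14 had an unadjusted p under 0.05, where 20.4% of genes did.

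**Figure D1:**
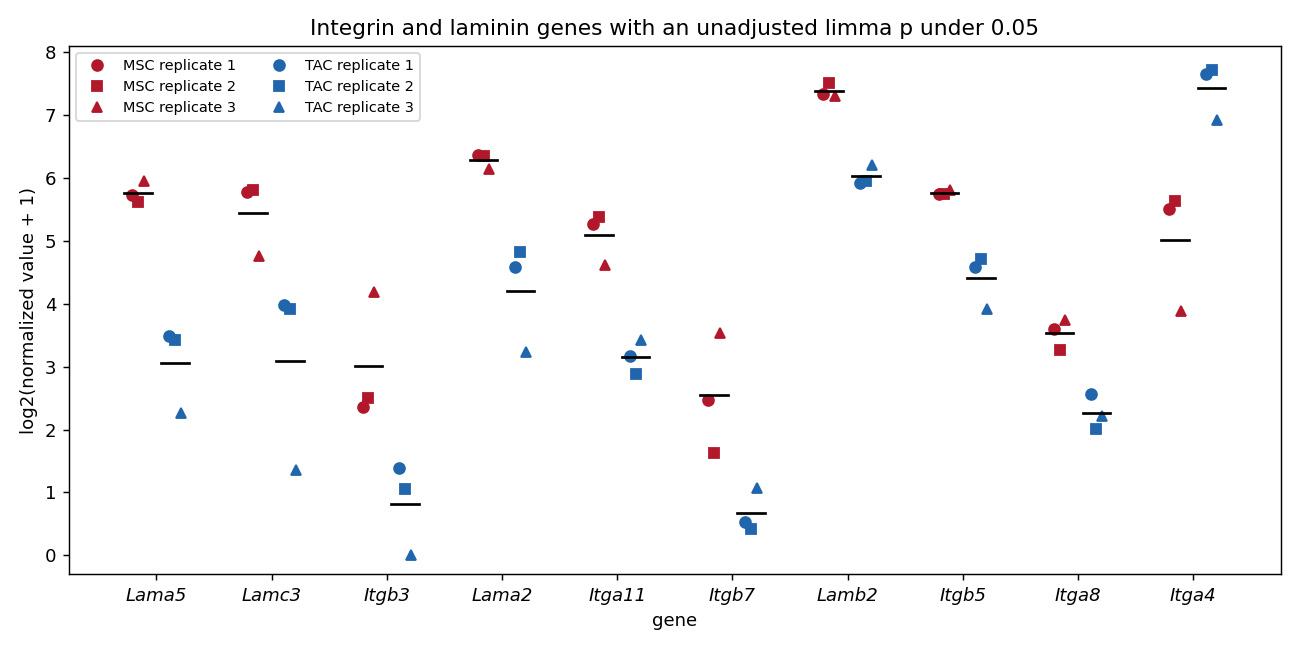
Level of the 10 members with an unadjusted limma p under 0.05, as log2(normalized value + 1), in each library. Circles, squares and triangles are replicates 1, 2 and 3, red is MSC, blue is TAC, and black bars are group means. For Lama5, Lamc3, Itgb3, Lama2, Itga11, Itgb7, Lamb2, Itgb5 and Itga8 every MSC library lies above every TAC library, and for Itga4 the order is the opposite.

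Among laminin alpha chains, Lama5 and Lama2 were higher in MSC and Lama1 was not. Lama5 (chromosome 2, 180176373 to 180225859, minus strand, mm10), the alpha chain of many mature vascular and epithelial basement membranes, was 52.2, 48.2 and 61.1 in MSC replicates 1, 2 and 3. In the TAC replicates it was 10.2, 9.73 and 3.78. The groups were far apart and replicate 3 moved each group away from the other. The means were 53.8 ± 6.59 (SD, n = 3) for MSC and 7.92 ± 3.60 (SD, n = 3) for TAC, a ratio of 6.79, and the log2 fold change was -2.71 (limma adjusted p 0.0556, SE 0.41). Across 17 alternative settings the adjusted p lay between 9.91e-07 and 0.416, and it was under 0.05 in 5 of them.

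Lama2 (chromosome 10, 26980036 to 27619758, minus strand), the alpha chain of muscle and peripheral nerve basement membranes, was 81.3, 80.2 and 69.8 in the MSC replicates. It was 23.0, 27.3 and 8.37 in the TAC replicates. No TAC library came near an MSC library. The ratio of means was 3.95 and the log2 fold change -2.07 (adjusted p 0.129, SE 0.44). Lama4, a chain of vessel walls, was 97.8, 80.1 and 30.9 in MSC and 41.5, 47.3 and 22.4 in TAC. At each replicate number TAC was the lower of the pair, but the groups overlapped, since MSC replicate 3 lay below TAC replicates 1 and 2. Its log2 fold change was -0.80 (adjusted p 0.594, SE 0.50, and 0.138 with the block). That change ran from -1.30 to -0.49 when 1 sample was left out.

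Lama1, the alpha chain of the early embryo and of tooth germs, was the most abundant alpha chain by mean. It was 166, 161 and 34.4 in MSC replicates 1, 2 and 3, against 199, 207 and 95.0 in those of TAC. TAC was higher at every replicate number, but replicate 3 was low in both groups and the groups overlapped. Its log2 fold change was 0.69 (adjusted p 0.742, SE 0.65), and it was -0.052 without MSC replicate 3.

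Among beta chains, Lamb2 was higher in MSC. Lamb2 (chromosome 9, 108479736 to 108490530, plus strand), a chain of vessel, nerve and synaptic basement membranes, was 162, 182 and 157 in the MSC replicates. In the TAC replicates it was 59.6, 60.7 and 73.0. The groups were far apart, although TAC replicate 3 lay above TAC replicates 1 and 2. The TAC minus MSC log2 difference of -1.09 within replicate 3 stood beside -1.50 within replicates 1 and 2. Means were 167 ± 13.5 (SD, n = 3) and 64.4 ± 7.47 (SD, n = 3), a ratio of 2.59, and the log2 fold change was -1.36 (adjusted p 0.0909, SE 0.25). The block brought the adjusted p to 0.0442, and the alternative settings gave values between 5.44e-07 and 1.0. Its paralog Lamb1, the widely used beta chain, averaged 81.3 ± 26.7 (SD, n = 3) for MSC and 99.1 ± 46.1 (SD, n = 3) for TAC, a log2 fold change of 0.20 (adjusted p 0.923, SE 0.48) that was below 0 without any 1 of MSC replicate 3, TAC replicate 1 and TAC replicate 2.

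Among gamma chains, Lamc3 was higher in MSC. Lamc3 (chromosome 2, 31887291 to 31946539, plus strand), a gamma chain of limited tissue range, was 54.0, 55.2 and 26.1 in MSC replicates 1, 2 and 3, against 14.8, 14.2 and 1.56 in those of TAC. Replicate 3 was the lowest library of each group, yet the groups did not overlap. The ratio of means was 4.43 and the log2 fold change -2.36 (adjusted p 0.275, SE 0.75), which was -1.50 without TAC replicate 3. Lamc1, the gamma chain of most laminins, was 166, 162 and 103 in MSC and 160, 159 and 43.2 in TAC, so that replicates 1 and 2 of the groups were nearly level. Its log2 fold change was -0.44 (adjusted p 0.822, SE 0.54), and it became 0.19 without TAC replicate 3.

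Lama3 and Lamb3 are chains of epithelial basement membranes. Lamb3 was 20.1 and 23.3 in MSC replicates 1 and 2, had no read in MSC replicate 3, and was 20.3, 25.4 and 7.36 in TAC. Lama3 was 38.8, 43.9 and 9.04 in MSC and 31.9, 33.1 and 7.27 in TAC, lower in TAC at every replicate number. In replicates 1 and 2 alone the log2 fold changes were 0.067 for Lamb3 and -0.34 for Lama3, and Lama3 passed the adjusted threshold there (0.019). Over all samples they were 1.06 and -0.32, with adjusted p-values of 0.801 and 0.926. Without MSC replicate 3 that of Lamb3 was -0.43. Of 11 listed epithelial markers 6 also had no read in MSC replicate 3, among them Cdh1, Epcam and Trp63, and the summed level of the list was 311 there against 2111 to 3392 in the other libraries. That sum was mostly the enamel genes Amelx, at 80.6 in MSC replicate 3 and 826 to 2503 elsewhere, and Ambn, at 181 and 770 to 1157. Krt5, Krt14 and Perp were higher in MSC replicate 3 than in MSC replicates 1 and 2, Krt14 at 16.02 and Perp at 18.2. Of the 11 genes 5 were higher in every TAC library than in every MSC library, Krt5, Krt14, Krt17, Cdh1 and Epcam, and 0 the other way. Of all genes tested 12.3% and 12.2% were. The part of epithelial RNA in these values was not tested.

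Because a chain must find partners, levels were also compared per length, as the value divided by the kilobases of annotated exon, and each chain was expressed as a share of its class within a library. These shares do not depend on the scaling between libraries, and they are given without a test. Lama1 made up 44.6%, 45.5% and 21.4% of the alpha chain signal in MSC and 70.2%, 69.2% and 74.4% in TAC. Lama5 made up 11.9%, 11.6% and 32.3% in MSC and 3.08%, 2.76% and 2.52% in TAC, and Lama2 17.4% ± 7.24 and 4.70% ± 0.764 (SD, n = 3). The difference in the Lama5 share, 15.8 percentage points, was 8.84 in replicates 1 and 2 only. All 3 shares were separated between the groups, while that of Lama3 was 8.56% ± 3.15 and 8.42% ± 2.85. The Lama4 share was separated too, at 21.1%, 18.2% and 15.45% in MSC and 11.8%, 12.7% and 14.1% in TAC.

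Lamc3 held 26.8%, 27.8% and 25.6% of the gamma signal in MSC, and 9.18%, 9.05% and 4.13% in TAC. Here MSC replicate 3 did not stand apart. Lamb2 held 66.6%, 70.3% and 83.3% of the beta signal in MSC and 38.1%, 38.0% and 67.7% in TAC, so the groups overlapped through TAC replicate 3. Per kilobase, Lamb2 was the highest laminin chain in MSC at 27.4 ± 2.21 (SD, n = 3), followed by Lamc1 at 17.3 ± 4.26 and Lama1 at 12.4 ± 7.70. In TAC the highest mean was that of Lama1 at 17.2 ± 6.45, with Lamc1 at 14.6 ± 8.13, Lamb2 at 10.6 ± 1.23 and Lamb1 at 9.99 ± 4.65. In MSC Lamc1 and Lama1, and in TAC all 4 of these chains, lay within the spread of their neighbours, and in TAC replicate 3 alone Lamb2 was the highest.

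**Figure D2:**
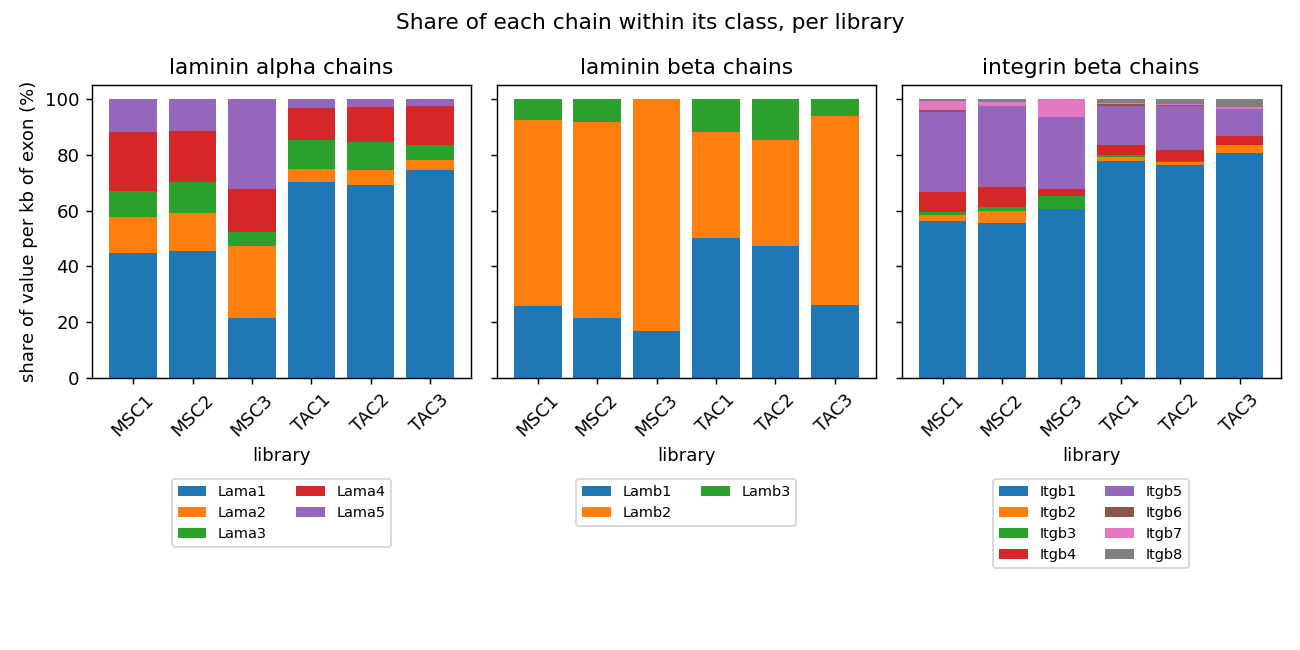
Share of each chain, in percent of the value per kilobase of exon summed over its class, in each of the 6 libraries, for laminin alpha and beta chains and integrin beta subunits. The Lama1 share is 69.2% to 74.4% in TAC and 21.4% to 45.5% in MSC, and the Itgb1 share 76.3% to 80.6% and 55.5% to 60.4%.

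Of the integrins that bind collagen, Itga11 had the highest group means and was higher in MSC. In TAC replicate 2, before division by length, Itga1 was above it. Itga11 (chromosome 9, 62677826 to 62783982, plus strand), a receptor for fibrillar collagen on mesenchymal cells, was 37.7, 40.9 and 23.5 in MSC replicates 1, 2 and 3, against 7.99, 6.35 and 9.74 in those of TAC. The lowest MSC library was still above the highest TAC library. The means were 34.1 ± 9.24 (SD, n = 3) and 8.03 ± 1.69 (SD, n = 3), a ratio of 4.24, and the log2 fold change was -1.94 (adjusted p 0.0962, SE 0.36). Leaving out MSC replicate 3 took it past the threshold, and the block did not (0.0759). Of its class per length, Itga11 took 65.2% to 74.9% in MSC and 47.3% to 50.1% in TAC. The other collagen receptors Itga1, Itga2 and Itga10 had log2 fold changes of -0.34, 0.050 and -0.79, with adjusted p-values of 0.622 or more. Itga1 had 1 read in MSC replicate 3, a value of 0.0133. Pelo, which lies within it, was at 1.92 in that library, so few reads of Pelo can have been counted to Itga1 there.

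Of the integrins that bind the RGD sequence of matrix proteins, Itga8 and the beta subunits Itgb5 and Itgb3 were higher in MSC. Itga8 (chromosome 2, 12106632 to 12301922, minus strand), a receptor for nephronectin and fibronectin in mesenchyme and smooth muscle, was 11.2, 8.61 and 12.5 in MSC and 4.90, 3.02 and 3.64 in TAC. The groups did not overlap, and the log2 fold change was -1.28 (adjusted p 0.312, SE 0.44). Itgb5 (chromosome 16, 33829665 to 33949153, plus strand), which pairs with Itgav to bind vitronectin, was 52.5, 52.7 and 55.0 in MSC and 23.0, 25.2 and 14.2 in TAC. Its MSC libraries were nearly equal. The ratio of means was 2.57 and the log2 fold change -1.36 (adjusted p 0.145, SE 0.31).

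Itgb3, the beta subunit of platelets, osteoclasts and some vessels, was 4.10, 4.64 and 17.3 in MSC, 1.62 and 1.08 in TAC replicates 1 and 2, and without a read in TAC replicate 3. The log2 fold change of -2.20 (adjusted p 0.285, SE 0.71) was -1.20 in replicates 1 and 2 and -4.19 in replicate 3. Its platelet partner Itga2b was 3.38, 3.27 and 8.23 in MSC and 0.679, 0.791 and 2.69 in TAC, a log2 fold change of -1.32 (adjusted p 0.455, SE 0.61). The groups of both genes were separated, but at low levels. Of 4 platelet markers listed, Pf4, Ppbp and Gp1ba were at 2.83 or less in all libraries. Pf4 was higher in every MSC library, at 2.35 to 2.83 against 0.527 to 1.56, while Gp1bb was 2.74 to 4.52 in MSC and 9.24, 8.47 and 60.1 in TAC. The part of platelets was not tested.

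Itgav is the alpha partner of Itgb3, Itgb5, Itgb6 and Itgb8. It was 50.9, 48.4 and 36.4 in MSC and 91.3, 97.0 and 36.1 in TAC. TAC was higher in replicates 1 and 2 and level with MSC in replicate 3, and the log2 fold change was 0.60 (adjusted p 0.643, SE 0.42). That change ran from 0.35 to 1.06 when 1 sample was left out. Itgb8, which with Itgav frees latent TGF-beta, was 4.96 and 5.53 in MSC replicates 1 and 2, had no read in MSC replicate 3, and was 8.34, 8.97 and 13.1 in TAC. Every TAC library was above every MSC library, and the log2 fold change was 1.69 (adjusted p 0.467, SE 0.79), with 0.63 in replicates 1 and 2 and 0.81 without MSC replicate 3. Itga5, the fibronectin receptor subunit, was 41.9 ± 23.9 (SD, n = 3) for MSC and 24.9 ± 3.47 (SD, n = 3) for TAC, a difference within its spread. TAC was lower at every replicate number, and the log2 fold change of -0.60 was -0.18 without MSC replicate 3, where Itga5 was 69.4.

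Itga4 had the highest log2 fold change of the members on the log2(value + 1) scale, while with a pseudocount of 0.1 that of Itgb8 was higher, at 2.79 against 2.45. Itga4 (chromosome 2, 79255426 to 79333123, plus strand), which binds VCAM1 and fibronectin as a partner of Itgb1 or Itgb7, was 44.7, 48.9 and 13.8 in the MSC replicates. It was 200, 209 and 120 in the TAC replicates. The groups did not overlap, and TAC was higher by a log2 fold change of 2.11 in replicates 1 and 2 and of 3.03 in replicate 3. Over all samples the means were 35.8 ± 19.1 (SD, n = 3) and 177 ± 49.3 (SD, n = 3) and the log2 fold change was 2.41 (adjusted p 0.129, SE 0.51). The block brought the adjusted p to 0.0442, and the alternative settings gave values between 7.54e-08 and 0.503. With replicates 1 and 2 averaged the limma adjusted p was 0.491. Its annotated span overlaps Cerkl, which was at 1.22 or less except in TAC replicate 3, where it was 21.2. The use of strand in counting is not given in the sources used here.

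Itgb7, the lymphocyte beta subunit and a partner of Itga4, was 4.56, 2.09 and 10.5 in MSC and 0.438, 0.336 and 1.11 in TAC, a log2 fold change of -1.87 (adjusted p 0.310, SE 0.64). Vcam1 was 18.4, 14.8 and 47.1 in MSC and 2.85, 1.99 and 1.64 in TAC, a log2 fold change of -2.97 (adjusted p 0.0913, SE 0.55), and fibronectin, Fn1, differed by -0.027 (adjusted p 0.995, SE 0.76). Itga9, the nearest relative of Itga4, was 21.1, 20.2 and 2.52 in MSC and 7.33, 8.90 and 2.54 in TAC. It was thus higher in MSC in replicates 1 and 2 and level in replicate 3. Of the per-length signal of Itga4 and Itga9 together, Itga4 held 53.8% to 75.1% in MSC and 92.8% to 96.3% in TAC.

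Itgb1, the common beta subunit, had the highest mean of the integrins over all samples and differed by less than its SE, although Itga4 was higher than Itgb1 in TAC replicates 1 and 2. It was 117, 117 and 146 in MSC replicates 1, 2 and 3, against 149, 138 and 138 in those of TAC, a log2 fold change of 0.17 (adjusted p 0.869, SE 0.26). Per kilobase it was 31.1 ± 4.16 (SD, n = 3) for MSC and 34.7 ± 1.49 (SD, n = 3) for TAC. The next beta subunit, Itgb5, was 15.02 ± 0.395 and 5.85 ± 1.64. The Itgb1 share of all beta subunits was 57.4% ± 2.64 in MSC and 78.2% ± 2.19 in TAC.

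The integrins that bind laminin gave no common direction, neither within replicates 1 and 2 nor within replicate 3. Itga6, the highest of them, was 22.0, 22.1 and 33.7 in MSC and 27.7, 31.7 and 12.8 in TAC, that is higher in TAC by 0.41 on the log2 scale in replicates 1 and 2 and different by -1.33 in replicate 3. Itga3 was lower in TAC throughout, with 9.35, 8.92 and 8.34 in MSC and 3.33, 4.41 and 4.14 in TAC, a log2 fold change of -0.999 (adjusted p 0.422, SE 0.43). Itga7, a receptor of muscle cells, was 7.30, 10.1 and 6.60 in MSC and 1.14, 0.623 and 7.07 in TAC. TAC replicate 3 lay among the MSC libraries, and the log2 fold change was -1.55 (adjusted p 0.452, SE 0.71). Itgb4, the hemidesmosome subunit that pairs with Itga6, was 19.97 ± 9.19 (SD, n = 3) for MSC and 11.5 ± 1.40 (SD, n = 3) for TAC, and Itgb6, an epithelial subunit, was 2.19 or less in every library.

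Leukocyte integrins were low throughout. Itgal was 3.09, 2.32 and 14.0 in MSC and 1.07, 1.27 and 2.21 in TAC, and Itgam 3.46, 4.14 and 6.54 in MSC and 1.05, 1.97 and 2.27 in TAC. Both were separated between the groups, with log2 fold changes of -1.25 (adjusted p 0.549, SE 0.70) and -1.04 (adjusted p 0.494, SE 0.52). Without MSC replicate 3 that of Itgal was -0.58. Itgax and the shared beta subunit Itgb2 had log2 fold changes of -0.35 and -0.060, the latter with no read in MSC replicate 3. The 10 leukocyte markers summed to 88.0 to 236 in MSC and 47.6 to 155 in TAC. Of these 2 of 10 were higher in every MSC library, Ptprc and Csf1r, where 12.2% of all genes tested were. C1qa, C1qb and Tyrobp were highest in TAC replicate 3, at 14.8, 40.6 and 9.22, and Lyz2, Fcer1g, Csf1r and Cd68 in MSC replicate 3, at 76.4, 39.8, 48.95 and 10.8. The part of leukocytes in the levels of these integrins was not tested.

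**Figure D3:**
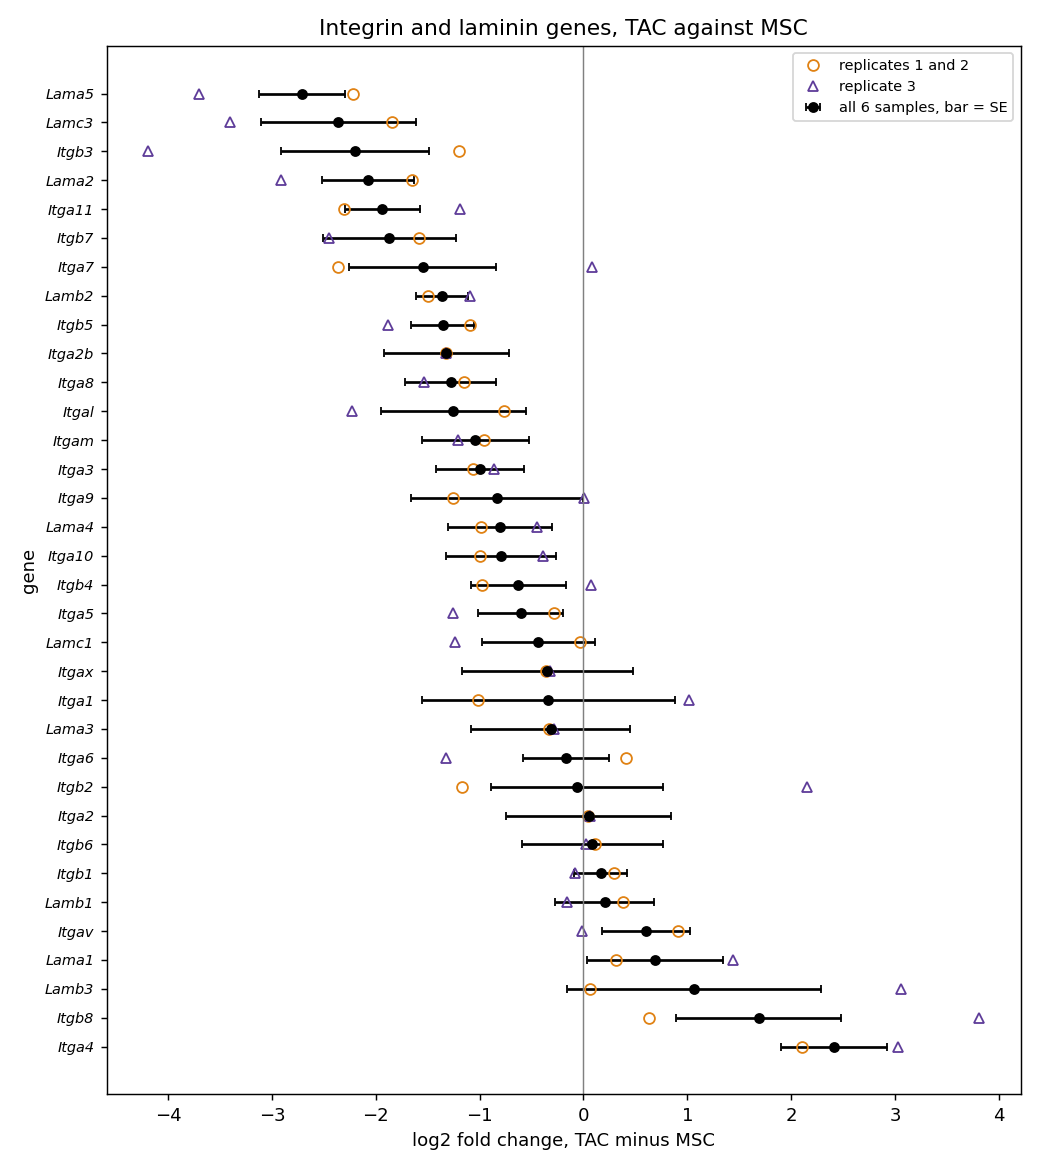
Log2 fold change, TAC minus MSC, of 34 of the 35 members tested. Filled circles with SE bars are the fit to all 6 samples, open circles the difference within replicates 1 and 2, and triangles that within replicate 3. The order runs from Lama5 at -2.71 to Itga4 at 2.41, and for 25 of these 34 members the open symbols lie on the same side of 0.

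The direction within replicate 3 was the same as within replicates 1 and 2 for 26 of 35 members (74.3%), and for 61.2% of all genes tested. Among the laminins it was the same for 10 of 11. In replicates 1 and 2 alone 28 of 35 members passed the adjusted threshold, where 44.2% of all genes did, a fit that rests on the small spread between nearly equal libraries.

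Other genes of the adhesion system were described from lists written from general knowledge, and the 3 that passed the adjusted threshold, 1 in each list, were higher in MSC, where 0.422% of all genes passed. Of 24 focal adhesion adaptors and kinases tested, 5 were higher in MSC and 0 in TAC at an unadjusted p under 0.05, with a median log2 fold change of -0.22. Over all genes these shares were 6.43% and 5.42%. With the block the counts were 8 and 1, where 20.4% of all genes passed in either direction. Tns2, a tensin that links beta subunits to actin, fell in TAC from 136 ± 13.5 (SD, n = 3) to 25.1 ± 4.15 (SD, n = 3), a log2 fold change of -2.40 (adjusted p 0.0271, SE 0.26), and it was the 1 gene of this list that passed the adjusted threshold. The others were Lims2 at -2.59, Tns1 at -1.14, Zyx at -0.92 and Parva at -0.67, with adjusted p-values of 0.276 to 0.404. Tns1 passed with the block (0.0442). Talin, Tln1, which activates integrins, differed by -0.23 (adjusted p 0.919, SE 0.52).

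Of 16 basement membrane partners of laminin tested, 5 were higher in MSC and 0 in TAC at an unadjusted p under 0.05 (6.43% and 5.42% of all genes), with a median of -0.58. With the block they were 8 and 3, where 20.4% of all genes passed. Col18a1, the collagen that carries endostatin, was 74.4, 69.8 and 71.4 in MSC and 12.9, 13.5 and 10.1 in TAC. It fell in TAC, the log2 fold change being -2.48 (adjusted p 0.0271, SE 0.27), and alone passed the adjusted threshold. Ntn4, a netrin that binds laminin, was at -2.08, and the collagen IV chains Col4a6, Col4a5 and Col4a2 at -1.61, -1.27 and -0.99, with adjusted p-values of 0.179 to 0.419. Fras1, Col15a1, Nid2 and Frem1 were higher in TAC at every replicate number, by log2 fold changes of 2.72, 1.29, 1.10 and 0.81, with overlapping groups and adjusted p-values of 0.466 to 0.687. Fras1 and Col15a1 had no read in MSC replicate 3. Nid1, which joins laminin to collagen IV, and Hspg2, perlecan, differed by -0.16 and -0.15 (adjusted p 0.904 and 0.973). The laminin receptor Dag1, dystroglycan, was 58.8 ± 5.92 (SD, n = 3) for MSC and 32.2 ± 15.6 (SD, n = 3) for TAC, with groups that did not overlap (adjusted p 0.438).

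Of 22 integrin ligands tested, 3 were higher in MSC and 0 in TAC at an unadjusted p under 0.05 (6.43% and 5.42% of all genes), with a median of -0.17. With the block they were 6 and 1, where 20.4% of all genes passed. Ctgf, a matricellular ligand of several integrins, fell in TAC from 52.2 ± 7.90 (SD, n = 3) to 7.91 ± 2.41 (SD, n = 3), a log2 fold change of -2.60 (adjusted p 0.0389, SE 0.34). The other 2 were Vcam1 and Tgfb3, the latter at -0.86 (adjusted p 0.343, SE 0.31). Npnt, the nephronectin bound by Itga8, had no read in MSC replicate 3 and differed by 0.041 in replicates 1 and 2.

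Most markers of vessel cells were higher in MSC. The 10 smooth muscle and pericyte markers summed to 884, 893 and 1665 in MSC and to 147, 146 and 124 in TAC, and 9 of 10 were higher in every MSC library, all but Des. In TAC replicate 3 Acta2 was at 0.0114 and Cnn1 had no read. The 10 endothelial markers summed to 256, 258 and 377 in MSC and 154, 153 and 133 in TAC, with 7 of 10 separated. The 8 Schwann cell markers summed to 46.1 to 64.8 in MSC and 34.1 to 36.5 in TAC, with 4 of 8 separated. Skeletal muscle markers summed to 7.42 or less in every library. Fewer cells of a type and less RNA per cell cannot be told apart in captured bulk tissue, and the part of vessel and nerve cells in the values of Lama2, Lama5, Lamb2, Lamc3, Itga8, Itgb3 and Itgb5 was not tested.

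**Figure D4:**
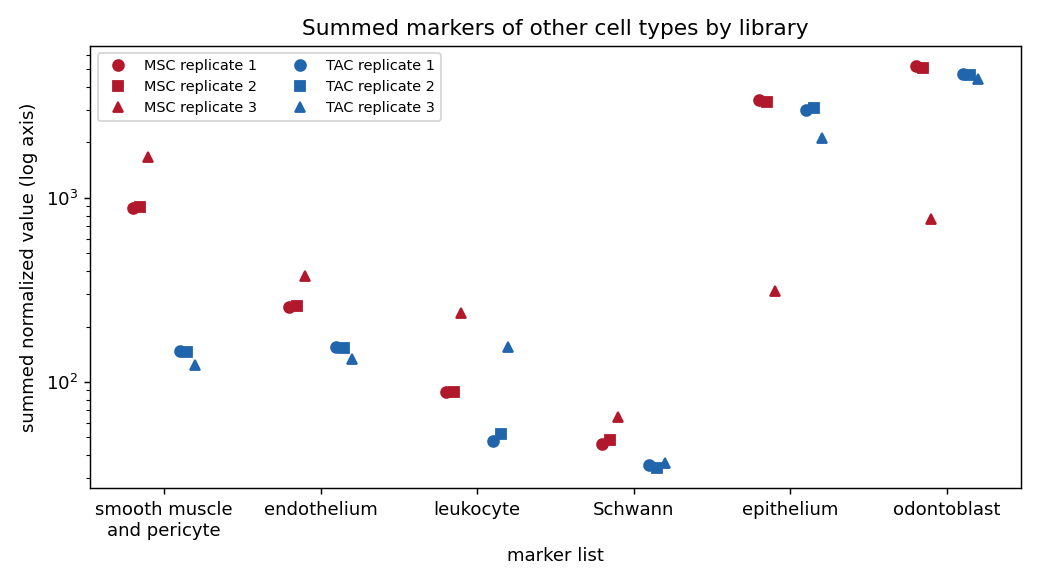
Summed normalized value of marker lists of other cell types in each library, on a log axis. Red is MSC, blue is TAC, and circles, squares and triangles are replicates 1, 2 and 3. Smooth muscle and pericyte markers are at 884 to 1665 in MSC and 124 to 147 in TAC, and epithelial and odontoblast markers are lowest in MSC replicate 3, at 311 and 763.

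The sequences just before the start sites of 3 members are shown, because Itga4 was the member with the highest, Lama5 the member with the lowest log2 fold change on the log2(value + 1) scale, and Itga11 the collagen receptor with the highest group means. They are the 250 bases upstream of the annotated start (RefSeq, GRCm38.p6, strand of the gene, 5′ to 3′), and capitals mark the GC box GGGCGG or its reverse complement CCGCCC, the element bound by SP and KLF factors. They lie at chr2:79255176-79255425 (plus) for Itga4, chr2:180225860-180226109 (minus) for Lama5 and chr9:62677605-62677854 (plus) for Itga11. For Itga11 the RefSeq start lies past the deposited start at 62677826, so the last bases shown fall inside the span given above.
Itga4: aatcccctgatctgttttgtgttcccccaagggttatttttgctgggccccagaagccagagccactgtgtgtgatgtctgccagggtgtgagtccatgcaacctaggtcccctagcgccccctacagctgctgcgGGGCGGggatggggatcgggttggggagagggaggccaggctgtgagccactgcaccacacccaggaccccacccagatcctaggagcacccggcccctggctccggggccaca
Lama5: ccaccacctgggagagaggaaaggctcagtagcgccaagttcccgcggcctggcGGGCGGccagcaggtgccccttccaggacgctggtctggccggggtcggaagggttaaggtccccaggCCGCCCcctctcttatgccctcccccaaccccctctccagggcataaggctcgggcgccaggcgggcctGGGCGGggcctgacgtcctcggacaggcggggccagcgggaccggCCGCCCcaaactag
Itga11: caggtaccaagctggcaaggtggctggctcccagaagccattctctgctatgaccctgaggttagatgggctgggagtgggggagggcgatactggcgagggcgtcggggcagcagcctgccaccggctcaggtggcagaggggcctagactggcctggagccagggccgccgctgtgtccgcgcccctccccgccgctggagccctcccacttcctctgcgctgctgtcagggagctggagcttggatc

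Their GC content was 64% for Itga4, 72.4% for Lama5 and 68.4% for Itga11. Itga4 had 1 GC box, Lama5 had 4 and Itga11 had 0. Promoters were found for 23 of the 36 members, and 8 of these 23 held a GC box, where 32.7% of 32851 promoters of all genes did. A TATA box (TATAAA or TTTATA) was found in 0 of 23, against 12.4% of all, a CCAAT box (CCAAT or ATTGG) in 4 of 23 against 33.8%, and the E-box CAGGTG or CACCTG in 8 of 23 against 17.2%. Of the 8 matched members with an unadjusted p under 0.05, 3 held a GC box and 3 the E-box. No overlap between the 4 motifs was removed.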

How the data were processed

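RNA of 3 MSC and 3 TAC samples was sequenced as single-end reads. The authors trimmed the reads and aligned them to mm10 with TopHat 2.0.8, and per the labels CASAVA 1.8.2 and Partek were used. The methods name RPKM, but the deposited values behaved as a signal: estimated reads plus 1, divided by a size factor per library and not by length, so that the lowest value of a library equals 1 read. Of low values, 62.5% to 72.6% per library came out within 0.02 of a whole read, so no count model was used. Estimated reads are the value divided by that lowest value, minus 1, and 3 reads, the limit that a count of 0 allows, are worth 0.0114 to 0.0869. This covers counting error only.

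Values were taken as log2(value + 1), which understates the change of low genes, and genes whose mean was 1 or more (15391) were fitted with limma 3.58.1 in R 4.3.3 (variance trend, two-sided, TAC minus MSC, Benjamini-Hochberg over all genes, threshold 0.05). The design assumed normalized values, and the same test suits this unit. The fit was tested on simulated data in which replicate 3 did not stand apart, so that test does not cover the spread seen here. Lengths are unions of GENCODE M21 exons, and 30 of 36 members had the same span there, with deposited ends counted as 1 base past the last. Coordinates are 1-based on mm10. The replicate numbers were taken from the labels. The study's methods mention 3 pairs of samples and do not say how they were paired. Deviations from group means, correlated across genes between the groups, gave 0.477, 0.465 and 0.517 for same numbers, but also 0.462 and 0.480 for numbers 1 and 2 crossed. Number 3 of a group with number 1 or 2 of the other gave -0.5 to -0.485. These values thus set replicate 3 apart and do not tell numbers 1 and 2 from each other. Replicates 1 and 2 of a group differed by more than sampling noise (chi-square per gene 10.3 in MSC and 8.32 in TAC).

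Per-sample values are given for members with an unadjusted p under 0.05 with or without the block, with groups that do not overlap, or with the highest mean of their class. Those of Itga7, Itga9, Lama3 and Lamb3, which meet none of these rules, are given as well. From each list up to 6 genes with an unadjusted p under 0.05 are named. Further genes, among them Tln1, Nid1, Hspg2, Dag1, Fn1, Npnt, Fras1, Col15a1, Nid2, Frem1 and the single markers, were named after their values were seen. The members and lists were chosen with earlier results of these data known. The values of 1 member, which enters the counts, are not reported here.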

Additional observations from a re-analysis of the deposited data

Results flagged for a closer look

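The 9 members below had opposite directions within replicate 3 and within replicates 1 and 2. The limma test of that difference has 1 library a group in replicate 3 and takes its error from the nearly equal replicates 1 and 2, so that 25 of 35 members, these 9 among them, and 57.2% of all genes passed it, and nothing is read from its p-values. The TAC minus MSC difference in replicate 3 less that in replicates 1 and 2, on the log2 scale, was 3.32 for Itgb2, 2.45 for Itga7, 2.03 for Itga1, 1.26 for Itga9, 1.05 for Itgb4, -0.38 for Itgb1, -0.54 for Lamb1, -0.92 for Itgav and -1.74 for Itga6. For Itgb2 and Itga1 MSC replicate 3 had 0 and 1 reads. For Itga9, Itgav, Itgb1, Itgb4 and Itga7 the difference within replicate 3 was 0.0055, -0.012, -0.086, 0.073 and 0.086, so its sign there rests on 1 nearly level pair of libraries.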

How the results depend on the processing

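The count of members past the adjusted threshold, 0 of 35, was 1 with a pseudocount of 10, with a minimum mean of 10 and with quantile normalization, each time Lama5. It was 2 with the replicate block (Itga4 and Lamb2) and 10 with a term for replicate 3 against replicates 1 and 2. With replicates 1 and 2 only it was 28, and with replicates 1 and 2 averaged it was 0. It ran from 0 to 2 when 1 sample was left out, the 2 being Itga11 and Lamb2 without MSC replicate 3. The count at an unadjusted p under 0.05, 10 of 35 where 11.9% of all genes passed, was 21 with the term for replicate 3 (29.6% of all genes) and 29 with replicates 1 and 2 only (51.9%), and ran from 8 to 15 when 1 sample was left out (6.68% to 20.2%). The count over all genes, 65, was 229 with the block, 1814 with the term for replicate 3, 10 with replicates 1 and 2 averaged, and 0 to 292 when 1 sample was left out. At the adjusted threshold the block changed no other call of a member, and at an unadjusted p under 0.05 it added Itga2b, Itga3, Itgam and Lama4.

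Of 563 log2 fold changes of 34 members under the alternatives, 29 had the opposite sign, for 11 members. Itga1 was 0.38 and Itgb2 0.67 with a pseudocount of 0.1, Itgb2 was 0.46 with replicates 1 and 2 averaged, and Itga6 was 0.41 in replicates 1 and 2 only. When 1 sample was left out, Itga1 ran from -1.71 to 0.42, Itga2 from -0.57 to 0.67, Itga6 from -0.41 to 0.21, Itgax from -1.001 to 0.29, Itgb2 from -0.90 to 0.58, Itgb6 from -0.36 to 0.55, Lama1 from -0.052 to 1.07, Lama3 from -1.01 to 0.36, Lamb1 from -0.095 to 0.68, Lamb3 from -0.43 to 1.86 and Lamc1 from -0.75 to 0.19. The cause was not tested.

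The shares of Lama5, Lama1, Lamb2 and Lamc3 kept their direction with the longest transcript as the length and in replicates 1 and 2 only, both chosen after seeing the data.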
